A study of Mus musculus with 2 samples.

Results

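Of 67113 accessible regions of chromosomes 1 to 19 that were called in both genotypes with a summed pileup of 40 or more, 359 had a Tle4cKO pileup at least 1.2 times the WT pileup, a share of 0.535%. ATAC-seq reads accessibility through the transposase Tn5, which cuts open chromatin and tags the cut ends for sequencing. The macrophages came from the colon of untreated male C57BL/6 mice aged 18.9 weeks, by a sort for CD64-positive cells that lacked Siglec-F and were low in Ly6C. WT mice carried Lyz2-Cre, a Cre gene placed under a promoter active in macrophages and granulocytes, and Tle4cKO mice carried Lyz2-Cre together with floxed Tle4 (Tle4f/f). The controls therefore carried the same Cre and differed in the floxed alleles. For each genotype the cells of 2 mice were pooled into 1 library, so that every difference below lies between 2 libraries and has no replicate check.

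The pileup is the number of reads or fragments stacked at the summit of a peak, and it is the authors' own value for each peak. The lists held 128737 WT peaks with a median pileup of 28 and 128129 Tle4cKO peaks with a median of 20. Two-way pairing, in which each peak is the strongest one that overlaps its partner, gave 92335 pairs, with a median Tle4cKO/WT ratio of 0.741. The 359 higher pairs were chosen by this ratio, so their ratios are a description and support nothing on their own. No scaling of the libraries is given, and a difference in sequencing depth and a general difference in accessibility cannot be told apart. For the same reason a raw ratio above 1 runs against the general ratio of the 2 lists and is not a measured gain of accessibility in cells.

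TLE4 belongs to the Groucho family of corepressors, which bind no DNA themselves and are brought to regulatory regions by transcription factors such as those of the RUNX, HES and TCF/LEF families. There they recruit histone deacetylases and lower transcription. Heat shock genes, several of which had higher pairs, encode chaperones that help proteins fold, and their promoters carry heat shock elements that bind the factor HSF1.

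The sequences of 6 gene starts show the regions that bear most on the results, as the 250 bases before the annotated start in RefSeq GRCm38.p6, the assembly behind mm10, written 5′ to 3′ along the strand of the gene. The first set comprises Hsph1, Hspa1a and Hspa1b, whose starts lay under strong peaks that were lower in Tle4cKO. Higher pairs lay near the 3′ ends of Hsph1 and Hspa1a, and that of Hspa1a lay within 10 kb of Hspa1b, on the side of its start. Capitals mark a heat shock element with 2 units, GAANNTTC or TTCNNGAA, both of which read the same on either strand.
Hsph1 chr5:149636337-149636586 (minus strand): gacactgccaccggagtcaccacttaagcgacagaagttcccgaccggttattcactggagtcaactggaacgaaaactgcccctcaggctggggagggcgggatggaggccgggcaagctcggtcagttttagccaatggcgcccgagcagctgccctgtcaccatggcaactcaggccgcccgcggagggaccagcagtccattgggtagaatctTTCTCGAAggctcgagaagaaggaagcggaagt
Hspa1a chr17:34972157-34972406 (minus strand): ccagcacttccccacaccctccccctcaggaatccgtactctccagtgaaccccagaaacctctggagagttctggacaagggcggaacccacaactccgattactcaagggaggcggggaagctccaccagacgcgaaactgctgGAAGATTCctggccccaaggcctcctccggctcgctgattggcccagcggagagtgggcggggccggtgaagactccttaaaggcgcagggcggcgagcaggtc
Hspa1b chr17:34959239-34959488 (minus strand): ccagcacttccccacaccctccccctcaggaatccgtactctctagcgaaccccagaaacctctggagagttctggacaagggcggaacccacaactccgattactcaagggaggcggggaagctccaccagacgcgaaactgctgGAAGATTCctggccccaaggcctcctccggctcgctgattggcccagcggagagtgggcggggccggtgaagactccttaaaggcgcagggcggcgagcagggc
The second set comprises Tmem163, Ctsk and Tigit, whose starts lay inside the region that the 2 peaks of a higher pair span together. Capitals mark each CG dinucleotide.
Tmem163 chr1:127678022-127678271 (minus strand): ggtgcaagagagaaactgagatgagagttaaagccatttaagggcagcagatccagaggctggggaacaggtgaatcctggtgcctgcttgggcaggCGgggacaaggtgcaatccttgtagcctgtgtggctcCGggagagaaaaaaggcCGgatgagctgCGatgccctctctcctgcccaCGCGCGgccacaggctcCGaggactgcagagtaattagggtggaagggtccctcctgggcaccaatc
Tigit chr16:43664185-43664434 (minus strand): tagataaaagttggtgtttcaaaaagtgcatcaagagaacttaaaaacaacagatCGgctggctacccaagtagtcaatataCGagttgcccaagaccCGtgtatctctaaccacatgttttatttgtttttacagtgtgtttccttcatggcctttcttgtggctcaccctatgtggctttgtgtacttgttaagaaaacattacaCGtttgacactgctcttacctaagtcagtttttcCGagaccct
Ctsk chr3:95498960-95499209 (plus strand): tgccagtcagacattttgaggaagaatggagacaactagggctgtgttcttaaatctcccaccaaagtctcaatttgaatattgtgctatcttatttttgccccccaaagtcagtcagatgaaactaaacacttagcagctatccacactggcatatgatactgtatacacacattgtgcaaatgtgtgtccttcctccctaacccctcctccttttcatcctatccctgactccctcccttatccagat
The upstream stretches of Hspa1a and Hspa1b were identical at 247 of 250 positions, so reads from these stretches can be hard to assign to 1 copy, and the values at both starts are uncertain for that reason. Before the start of Tmem163 there were 8 CG dinucleotides, before that of Tigit 5 and before that of Ctsk 0.

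The higher pairs were weak peaks that lay close to the threshold. Their WT pileup ran from 12 to 79 with a median of 20, and their Tle4cKO pileup from 22 to 110 with a median of 27. The other 66754 pairs had medians of 63 in WT and 43 in Tle4cKO. The ratio of the higher pairs had a median of 1.28 and quartiles of 1.22 and 1.37, and 217 of them (60.4%) were under 1.3. Only 36 of the 359 reached 1.5, and 3 reached 2. At the threshold itself stood 22 pairs with a ratio of exactly 1.2, while 59 pairs from 1.18 to just under it stayed outside, the nearest with 36 in WT and 43 in Tle4cKO.

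The share of higher pairs fell off steeply with the summed pileup of the pair. It was 1.97% (292 of 14846) at sums of 40 to 59, 0.359% (61 of 16986) at 60 to 99, 0.0417% (5 of 11980) at 100 to just under 150 and 0.00429% (1 of 23301) at 150 or more. Pileups this low leave wide counting intervals. With an exact 95% interval that covers counting error only, and is approximate for a summit maximum, 8 of the 359 ratios lay wholly above 1. These were both pairs at Stac, 2 of the 3 at Hsph1, and 1 each at Hspa1a, Nup50, Gmpr and Sfi1. The bound of 1 is not the general ratio of 0.741, and the intervals do not allow for the choice of pairs by their ratio.

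**Figure D1:**
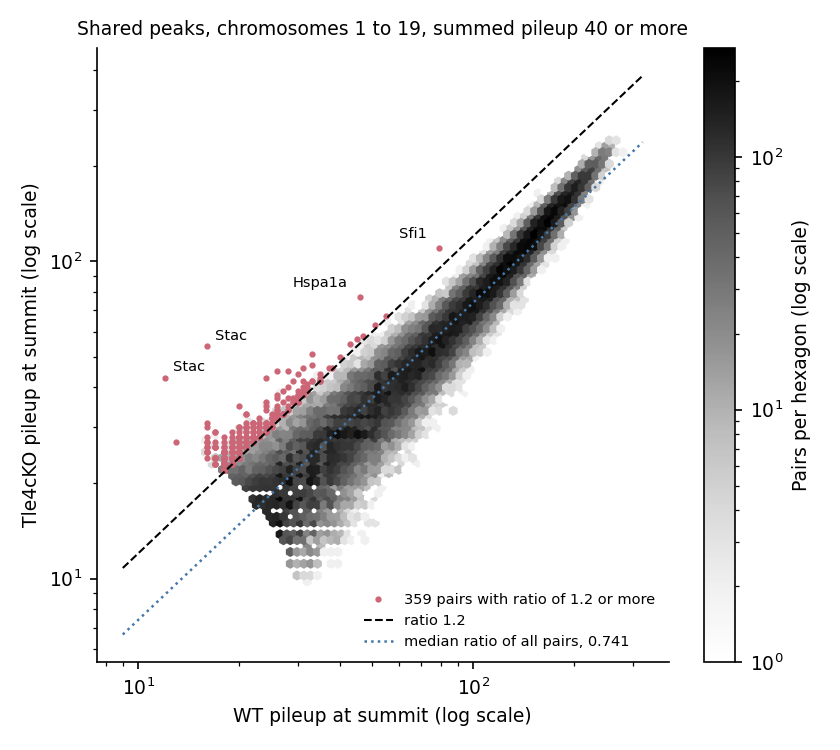
Tle4cKO pileup against WT pileup, both on log axes, for the 67113 pairs with a summed pileup of 40 or more; grey hexagons give the number of pairs, red points the 359 with a ratio of 1.2 or more, the dashed line a ratio of 1.2 and the dotted line the median ratio of 0.741 over all 92335 pairs. The red points sit at the low end of both axes, with both Stac pairs farthest above the dashed line and Sfi1 and Hspa1a at the highest pileups.

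The highest ratios of all were at Stac, which encodes an adaptor with SH3 and cysteine-rich domains that binds voltage-gated calcium channels. Stac spans chr9:111561437-111690588 on the minus strand. One pair, at chr9:111676968-111677763, stood at a pileup of 12 for WT and 43 for Tle4cKO, a ratio of 3.58 (1.86 to 7.46). The other, at chr9:111603719-111604481, had 16 in WT and 54 in Tle4cKO, a ratio of 3.38 (1.9 to 6.32). Both lay inside the gene, with their nearer edges 12825 and 86107 bp from the higher-coordinate end of its span. Their summits lay 73410 bp from each other.

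Most of the remaining pairs of Stac and its 10 kb flanks were lower in Tle4cKO. Among the 11 others with a summed pileup of 40 or more the ratio ran from 0.631 to 1.18 with a median of 0.857, and 2 were higher in Tle4cKO. The pairs that flanked the one at 3.38 had 20 in WT against 19 in Tle4cKO on the lower-coordinate side, and 31 against 23 on the other. Those that flanked the one at 3.58 had 38 in WT against 37 in Tle4cKO on the lower-coordinate side and, toward the gene start, 16 against 22 at chr9:111683594-111684687. The latter had a ratio of 1.38 (0.69 to 2.8) and stayed outside through its sum of 38. The gene start itself carried a weak pair with 13 in WT and 14 in Tle4cKO. The 2 higher pairs of Stac were 796 and 763 bp wide.

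Hsph1, which encodes a large chaperone of the HSP110 family, was the gene with the most higher pairs, 3 counting the gene with 10 kb of flank. It spans chr5:149616843-149636498 on the minus strand. The pair at chr5:149618746-149619604, inside the gene near its 3′ end, had 24 in WT and 43 in Tle4cKO, a ratio of 1.79 (1.06 to 3.09). The neighbouring pair at chr5:149617701-149618589 had 27 in WT and 36 in Tle4cKO, a ratio of 1.33 (0.787 to 2.28). Past the 3′ end by 1710 bp, the pair at chr5:149614347-149615133 had 16 in WT and 31 in Tle4cKO, a ratio of 1.94 (1.03 to 3.79).

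At the start of Hsph1 the order was the opposite. The pair there, over the stretch printed above with its TTCTCGAA element, had 247 in WT and 209 in Tle4cKO, a ratio of 0.846 (0.7 to 1.02). The next pair inward had 53 in WT and 52 in Tle4cKO. A pair farther inward had 9 in WT and 13 in Tle4cKO and another 14 and 17, both under the sum of 40. Along the gene, the raw Tle4cKO pileup was thus lower at the start, level just inside it and higher near and past the 3′ end. A lower start is not particular to Hsph1. Of all 9207 gene-end pairs with sums of 150 or more, 11 were higher in Tle4cKO. Their median ratio was 0.799, below the 0.846 at the start of Hsph1. The neighbouring gene Wdr95 counted the same 3 pairs within its own flank.

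Hspa1a encodes an inducible HSP70 chaperone and spans chr17:34969359-34972156 on the minus strand. Its higher pair, at chr17:34967792-34970220 across the 3′ end, had 46 in WT and 77 in Tle4cKO, a ratio of 1.67 (1.15 to 2.47). It had the second highest summed pileup of the 359. The pair at the gene start had 184 in WT and 155 in Tle4cKO, a ratio of 0.842 (0.676 to 1.05), and that at the start of Hspa1b had 150 and 119, a ratio of 0.793. Only the upstream stretches of the paralogs were compared, so how far their likeness touches the higher pair was not tested.

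Hsp90aa1 encodes the inducible cytosolic HSP90 and spans chr12:110691036-110696395; its strand was not in the tables used here. Beyond its lower-coordinate end, the pair at chr12:110687812-110688593 had 31 in WT and 46 in Tle4cKO, a ratio of 1.48 (0.921 to 2.42). The pair at chr12:110688992-110689601 had 20 in WT and 27 in Tle4cKO, a ratio of 1.35 (0.729 to 2.54). Farther out on the same side the order was the opposite, with 53 in WT and 33 in Tle4cKO at chr12:110686657-110687331 (0.623, 0.391 to 0.98) and 90 and 63 in the next pair (0.7). At the opposite end of the gene a strong pair had 196 in WT and 161 in Tle4cKO, a ratio of 0.821. Hsph1, Hspa1a and Hsp90aa1 each had a strong pair at 1 end of the gene with a lower value in Tle4cKO, as nearly all strong gene-end pairs had.

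**Figure D2:**
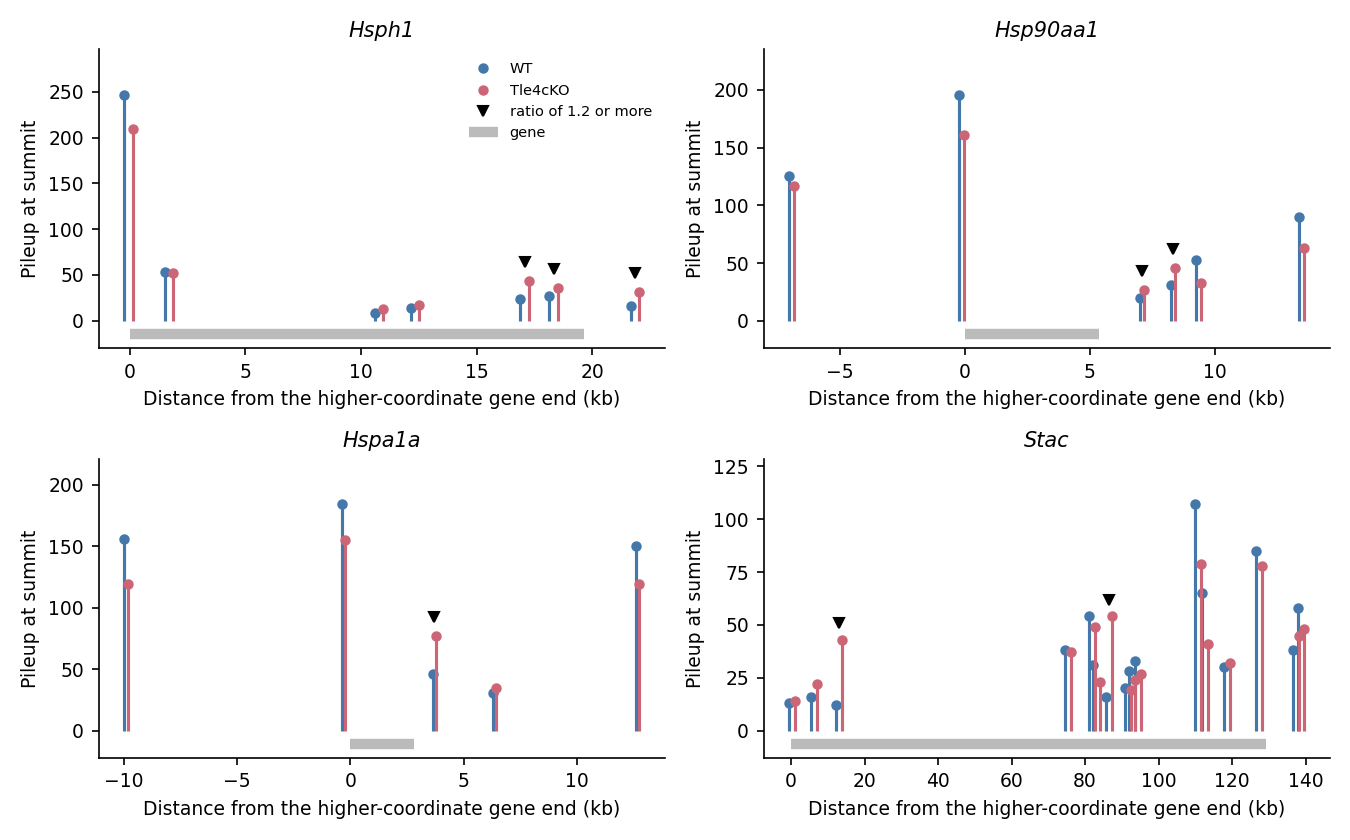
Pileup at the summit in WT (blue) and Tle4cKO (red) for every pair at Hsph1, Hsp90aa1, Hspa1a and Stac, against the distance from the higher-coordinate gene end in kb, which is the start of Hsph1, Hspa1a and Stac; the red stems are drawn slightly to the right of the blue ones, black triangles mark ratios of 1.2 or more, and the grey bar is the gene. The tall pairs at the higher-coordinate ends of the 3 heat shock genes are lower in Tle4cKO, and the marked pairs lie toward or past the far end.

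A list of 23 heat shock genes was drawn up after these values were seen, so it cannot serve as separate evidence. It held 76 pairs, of which 6 (7.89%) were higher pairs, against 0.535% over all pairs. These 6 lay at 4 genes, with the pair of Hspa1a counted for Hspa1b as well, and 19 genes of the list had none. Hspa8, the constitutive HSP70, had a pair with 24 in WT and 27 in Tle4cKO, a ratio of 1.12, and Dnajb1, an HSP40 cochaperone, had no ratio above 1.03. The 28 strong gene-end pairs of the list, with sums of 150 or more, had ratios from 0.656 to 0.934 with a median of 0.828. The same kind of pair over all genes had a median of 0.799 (9207 pairs). Among the list's 39 pairs with sums from 40 to just under 150 the median was 0.75 and 11 were higher in Tle4cKO, against a median of 0.692 and 1570 of 43812 over all such pairs. Start positions were at hand for 17 of the 23 genes, with 22 starts. In the 250 bases before the start, GAANNTTC was found at 31.8% of these 22 and 6.17% of 21263 protein-coding starts. The nearly identical stretches of Hspa1a and Hspa1b both count toward the 31.8%. TTCNNGAA was found at 18.2% and 6.48%. A run of 3 units was found at 9.09% and 0.386%.

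The strongest of the 359 was at Sfi1, which encodes a centrin-binding protein of the centrosome. At chr11:3195754-3196951, inside the gene, it had 79 in WT and 110 in Tle4cKO, a ratio of 1.39 (1.03 to 1.88). Several other pairs of Sfi1 were also high for Tle4cKO. Of the 10 other pairs with a summed pileup of 40 or more, 4 were higher in Tle4cKO, among them 115 against 125 and 109 against 122, and the median ratio was 0.946. Its gene-end pair had 124 in WT and 89 in Tle4cKO.

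The remaining pairs with high ratios lay singly at genes of varied function. Gmpr, which encodes guanosine monophosphate reductase, had 13 in WT and 27 in Tle4cKO inside the gene, a ratio of 2.08 (1.04 to 4.38). Retsat, which encodes retinol saturase, had 16 and 30 inside the gene, a ratio of 1.88 (0.99 to 3.68). Ralgds, an exchange factor for Ral GTPases, had 16 and 27, a ratio of 1.69. Outside genes, a pair 26195 bp from Nup50, a nuclear pore gene, had 26 in WT and 45 in Tle4cKO, a ratio of 1.73 (1.05 to 2.92). Pairs with 17 in WT and 29 in Tle4cKO lay 24090 bp from Fabp5, a fatty acid binding protein gene, and 351267 bp from Gpat3, a glycerol-3-phosphate acyltransferase gene. The nearest named gene to a pair with 16 and 28 was Pla2g4a, the cytosolic phospholipase A2 gene, at 1064304 bp, which is too far to assign the region to it.

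Among pairs with the highest sums, ratios were modest and all but those of Sfi1 and Hspa1a had intervals that included 1. Rab8a, a small GTPase of vesicle transport, had 55 in WT and 67 in Tle4cKO. Pgs1, an enzyme of cardiolipin synthesis, had 51 and 63. Notch1, a receptor whose targets include HES genes, had 45 and 57 inside the gene, a ratio of 1.27 (0.842 to 1.92), while its 10 other pairs had a median of 0.699. Hdac4, a class IIa histone deacetylase, had 43 and 55, a ratio of 1.28 (0.843 to 1.95). Arhgap26, a GTPase-activating protein, had 33 and 51, a ratio of 1.55 (0.978 to 2.47). Prkag2, a regulatory subunit of AMP-activated kinase, had 37 and 46. Outside genes lay the pairs nearest to Zfp68 (47 and 58), Wbp2 (40 and 50), Idh2 (38 and 46) and Kpna4 (33 and 47).

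Most higher pairs lay away from gene ends. Within 1000 bp of either annotated end of a gene were 28 of 359 (7.8%, 95% Wilson interval 5.45 to 11), inside gene bodies 188 (52.4%, 47.2 to 57.5) and outside genes 143 (39.8%, 34.9 to 45). Of the other pairs, 20.1% lay at a gene end, 44.5% in a gene body and 35.4% outside genes. Pairs of low pileup lie less often at gene ends whatever their ratio, and the position was therefore compared within classes of summed pileup. At sums of 40 to 59, 8.22% of the higher pairs and 8.08% of the others lay at a gene end, and 52.7% and 51.2% in a gene body. At sums of 60 to 99, 4.92% and 9.47% lay at a gene end, with an interval for the 61 higher pairs that included the value of the others. As far below the median ratio on a log scale, at 0.457 or less, lay 1570 pairs (2.34%). They had 7.77% at a gene end, 45.3% in a gene body and 46.9% outside genes.

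**Figure D3:**
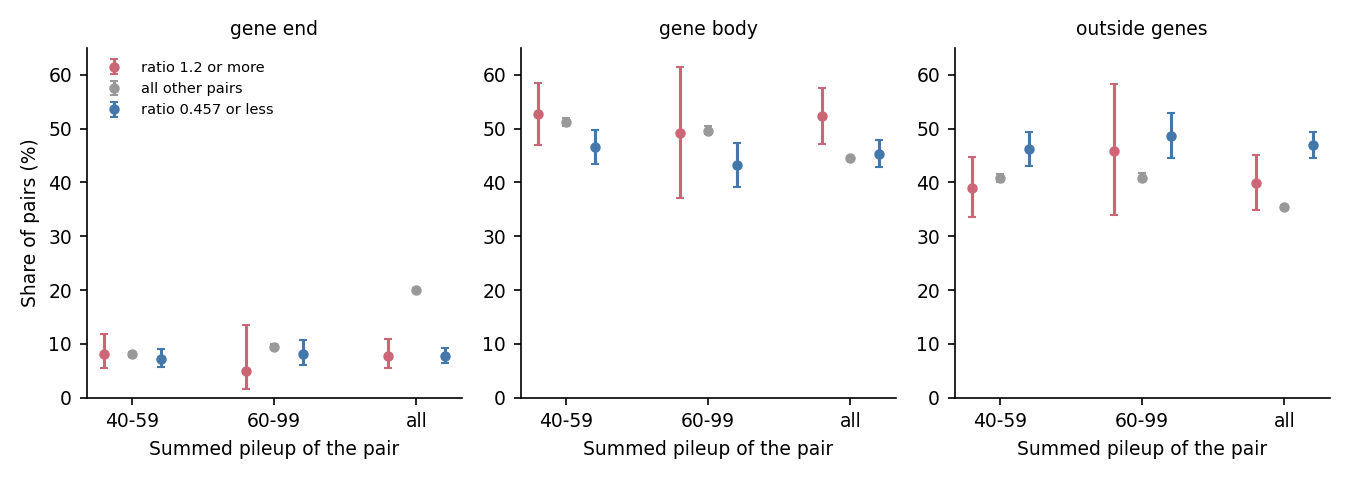
Share of pairs (%) at a gene end, in a gene body and outside genes, for sums of 40 to 59, 60 to 99 and all sums, with 95% Wilson intervals; red points are pairs with a ratio of 1.2 or more, blue points pairs with a ratio of 0.457 or less and grey points all other pairs. The red and grey points differ at gene ends over all sums (7.8% against 20.1%) and lie close together at sums of 40 to 59 (8.22% against 8.08%).

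A larger share of the higher pairs than of the others lay far from genes at sums of 60 to 99, and not at lower ones. At sums of 60 to 99, 37.7% (26.6 to 50.3) of the 61 higher pairs lay over 50 kb from any gene end, against 21.2% of the others, while at sums of 40 to 59 the shares were 21.6% and 22.5%. In all, 14 higher pairs lay over 200 kb from a named protein-coding gene. Neighbouring pairs share a chromosome region and are not independent, so no p-value is given. The gap at sums of 60 to 99 was seen among several comparisons by place and sum, and it was not tested. The width of the region was close to that of the others once sums were matched. Its median was 770 bp against 779 bp for the others at sums of 40 to 59, and 865 bp against 875 bp at 60 to 99. Within the higher pairs the Tle4cKO peak was the wider, with a median of 714 bp against 663 bp in WT. Within the other pairs it was the narrower, with 858 bp against 950 bp. At sums of 40 to 59 the medians were 696 and 646 bp in the higher pairs and 633 and 719 bp in the others. Peaks of higher pileup are wider (1299 bp in WT for other pairs at sums of 150 or more). The pairs were chosen by their pileup ratio, so the order of widths is no separate result.

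At sums of 40 to 59, gene starts were about as common among the higher pairs as among the others. Outside chromosome 18, for which no start positions were used here, 12 of 340 (3.53%) lay within 1000 bp of an annotated protein-coding start, against 15.7% of the others, and all 12 had sums of 40 to 59. In that class they made up 4.33% of 277 higher pairs, against 3.93% of the others. At sums of 60 to 99, 0 of 57 higher pairs (interval 0 to 6.31%) lay at a start, against 5.3% of the others. Near a 3′ end but not near a start lay another 12 of 340 (3.53%, 2.03 to 6.07), against 2.72% of the others, and at sums of 40 to 59 the shares were 2.89% and 3.11%. At sums of 60 to 99 these shares were 5.26% (1.81 to 14.4) and 3.04%. Some genes on other chromosomes, such as Hsp90aa1 and Sfi1, also had no start position. Pairs at such genes stayed in the totals, so the shares at starts and at 3′ ends may be too low in every set. Of the starts used, 11 starts of 10 genes lay inside a higher pair. The highest ratio among them was at Tmem163, which encodes a zinc transporter, with 20 in WT and 35 in Tle4cKO (1.75, 0.983 to 3.2). Ctsk, which encodes cathepsin K, a lysosomal protease that degrades collagen, had 22 and 28 in the pair at its start (1.27, 0.702 to 2.33). The WT peak of this pair covered the start, and the Tle4cKO peak ended just before it. The other pairs of Ctsk had a median of 0.7. Tigit, which encodes an inhibitory receptor of T and NK cells, had 20 and 28 (1.4, 0.761 to 2.62), while a stronger pair inside the gene had 122 in WT and 74 in Tle4cKO. Prkcz, Nrgn, Nrg4, Lmo7 and Map6d1 were the other named genes.

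The base composition before these starts was close to that at other weak pairs. The 11 starts had a median of 11 CG dinucleotides and 58.4% G and C, against 10 and 58.8% for 386 starts inside other pairs with sums of 40 to 59, and 17.5 and 61.2% for 9542 starts inside pairs with sums of 150 or more. In the 250 bases before the start, none of the 11 held GAANNTTC, TTCNNGAA, the PU.1 sequence GAGGAAGT or the AP-1 sequence TGANTCA on either strand. Of all 21263 starts, 6.17%, 6.48%, 2.23% and 6.13% held them in the same stretch. With 11 starts, no more can be said than that these letters are not in these windows.

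Along the chromosomes the higher pairs were mostly single. In fixed windows of 1 Mb, 300 windows held at least 1, of which 49 held 2, 3 held 3 and 1 held 5. The median distance between neighbours was 3594 kb, with 5 neighbours under 5 kb apart and 18 under 100 kb apart. Of those 5, 2 were at Hsph1, and 1 each at Hsp90aa1, Ints6 and the region between Wnt8a and Nme5. By chromosome the share ran from 0.214% on chromosome 13 (7 of 3270) to 0.949% on chromosome 18 (19 of 2002) and 0.922% on chromosome 3 (32 of 3471). The median ratio of all pairs per chromosome ran only from 0.714 to 0.739.

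**Figure D4:**
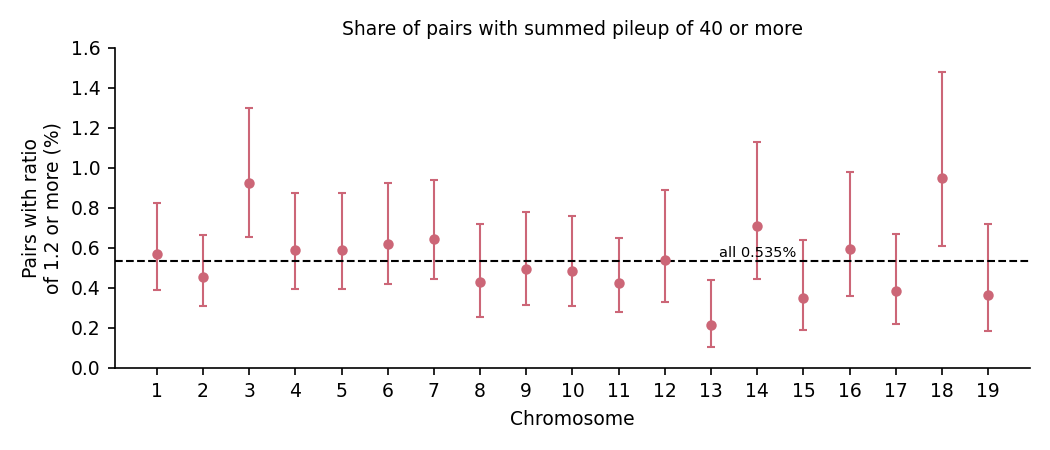
Share (%) of pairs with a summed pileup of 40 or more that had a ratio of 1.2 or more, by chromosome, with 95% Wilson intervals and the share over all chromosomes (0.535%) as a dashed line. Chromosomes 3 and 18 lie above the line and chromosome 13 below it, each with an interval that leaves out 0.535%.

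The window with 5 was chr3:9000001-10000000. It held pairs nearest to Zbtb10 (20 in WT and 24 in Tle4cKO) and Zfp704 (18 and 22), which encode zinc-finger proteins, a pair of them at Pag1 (20 and 24, and 28 and 34), an adaptor that binds the kinase CSK, and the pair near Fabp5 (17 and 29). Its 77 other pairs had a median ratio of 0.733, with 1 higher in Tle4cKO, so the higher pairs of this window stood among neighbours at the general ratio. The windows with 3 were that of Hsph1, one on chromosome 7 with Sbf2, Ampd3 and Mrvi1, and one on chromosome 10 with Rnf41, Pym1 and Olfr9. Their other pairs had medians of 0.808, 0.711 and 0.782. The fifth window, on chromosome 10, held 2 pairs near Rnf217, a ubiquitin ligase gene, and 12 others with a median of 0.754.

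Counted by gene, 287 named protein-coding genes had at least 1 higher pair within the gene or its 10 kb flanks, 12 had at least 2, and 2 (Hsph1 and Wdr95) had 3. Genes with 2 included Jak1, a kinase of cytokine receptors, with 21 in WT and 27 in Tle4cKO and with 24 and 29. Mbnl1, a splicing regulator, had 26 and 32 and, 9276 bp away, 22 and 28. Cgnl1, a cell junction gene, had 24 and 36 and also 20 and 29. Ints6, of the Integrator complex, had 18 and 22 and also 20 and 26. Between Wnt8a and Nme5 on chromosome 18 the pairs had 28 and 45 (1.61, 0.981 to 2.68) and 19 and 23. The other pairs of Jak1 had a median ratio of 0.704, of Mbnl1 0.776, of Cgnl1 0.774 and of Ints6 0.55. Among them 1 each at Jak1, Mbnl1 and Cgnl1 was higher in Tle4cKO, with ratios of 1.08, 1.07 and 1.03.

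Regions beside the higher pairs had nearly the same median ratio as those far away, and a larger share of them were higher in Tle4cKO. The 225 other pairs within 5 kb had a median ratio of 0.75, and the 62419 over 100 kb away had 0.729. Pairs that were higher in Tle4cKO without reaching 1.2 made up 5.78% (13) within 5 kb, 3.57% from 5 to 20 kb, 1.77% from 20 to 100 kb and 1.84% beyond. Pairs with sums under 100 were more common near the higher pairs (150 of 225 within 5 kb against 29488 of 62419 beyond 100 kb), and among these pairs the shares were 7.33%, 7.32%, 3.4% and 3.46% in the same order. These values come from the contrast that chose the higher pairs and are a description.

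**Figure D5:**
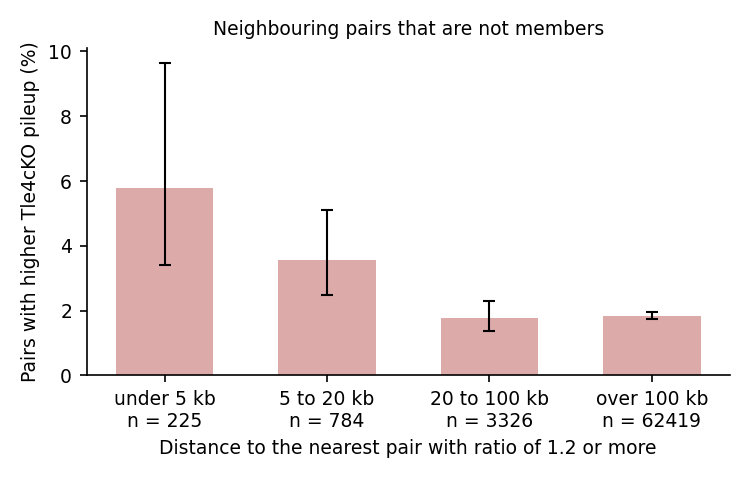
Share (%) of pairs with a Tle4cKO pileup above the WT pileup among pairs that did not reach a ratio of 1.2, by distance to the nearest pair that did, with 95% Wilson intervals and the number of pairs under each bar. The share is 5.78% under 5 kb and 1.84% over 100 kb.

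The gene lists held too few pairs for a count of 0 or 1 to differ clearly from the general share. Over 25 lists of 366 genes, 7 of 2059 pairs (0.34%) were higher pairs, against 0.535% over all pairs. The 22 macrophage identity genes, such as Csf1r and Cx3cr1, had 0 of 131, with a gene-end peak at 22 of 22 in WT and 21 of 22 in Tle4cKO. The TLE corepressor genes had 0 of 30, and Tle4 itself 0 of 6 with a median ratio of 0.678, which does not check the deletion since the position of the floxed exons is not given in the sources used here. Wnt pathway genes had 0 of 91, AP-1 factors 0 of 56 with a median of 0.823, interferon response genes 0 of 71 and antigen presentation genes 0 of 108.

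The 7 pairs fell on 7 lists, 1 each, and 6 of them are described here. Their lists had 1 of 238 pairs (0.42%, myeloid transcription factors), 1 of 169 (0.592%, Notch and HES), 1 of 197 (0.508%, IL-10, TGF-beta and anti-inflammatory genes), 1 of 111 (0.901%, pro-inflammatory cytokines and NF-kappaB), 1 of 117 (0.855%, lipid handling) and 1 of 51 (1.96%, housekeeping). Runx1, a myeloid transcription factor and partner of TLE proteins, had 22 in WT and 30 in Tle4cKO (1.36, 0.761 to 2.48) among 36 pairs with a median of 0.771. Notch1 is given above. Nfkb1, which encodes the p105 precursor of an NF-kappaB subunit, had 25 and 32 among 27 pairs with a median of 0.75. Tnfaip3, which encodes the NF-kappaB inhibitor A20, had 31 and 38 at 870 bp from the gene. Abca1, the cholesterol exporter, had 28 and 35 among 19 pairs with a median of 0.808. Ywhaz, a housekeeping 14-3-3 protein gene, had 30 and 38.

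The marker lists of other cells given here had no higher pairs, but they do not cover every cell that a macrophage gate could let through. Monocyte markers had 0 of 49, neutrophil markers 0 of 40, eosinophil and mast cell markers 0 of 25, dendritic cell markers 0 of 74, and T and NK cell markers 0 of 49. Epithelial markers had 0 of 26, stromal and endothelial markers 0 of 50 and enteric neuron and glia markers 0 of 17. Gene-end peaks of epithelial markers were listed for 6 of 12 genes in WT and 5 of 12 in Tle4cKO, and those of neutrophil markers for 9 and 7 of 12.

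Other immune and regulatory genes with a higher pair were picked after the values were seen and are given as values. Foxp1, a forkhead repressor of monocyte differentiation, had 21 in WT and 33 in Tle4cKO inside the gene, a ratio of 1.57 (0.882 to 2.86), among 78 pairs with a median of 0.748. Bach1 and Bach2, related leucine-zipper repressors, had 28 and 37 at 9158 bp and 19 and 28 at 88722 bp. Lcor, a ligand-dependent corepressor, had 26 and 33, and Ppard, a nuclear receptor for fatty acids, 24 and 30. Map3k7, which encodes the kinase TAK1, had 33 and 42, and Tgm2, a transglutaminase, 32 and 39. Clec12a, an inhibitory lectin of myeloid cells, had 18 and 25. Irf8, a factor of monocyte and dendritic cell development, was the nearest gene to a pair with 18 and 24 at 64494 bp. Each of these intervals included 1.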

How the data were processed

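The data were 1 WT and 1 Tle4cKO ATAC-seq library. The authors deposited 1 peak list per library with position, length, summit and pileup, a coverage signal in whole numbers, per the file headers. Build mm10 and the tools MACS2 2.1.1, Bowtie2 2.2.5 and cutadapt 1.14 stand in the submitters' processing notes, with no roles. The sources used here give no calling thresholds, transposase shift, duplicate handling, read totals or scaling, so library depth is unknown.

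Peaks were paired where each was the highest overlapping peak of the other list (overlap of 1 bp or more), and kept on chromosomes 1 to 19 with a summed pileup of 40 or more and a ratio of 1.2 or more. Gene positions, starts and upstream sequences came from RefSeq tables of GRCm38.p6, and of 366 list genes 364 matched. Gene starts on chromosome 18, those of some genes on other chromosomes, and exons were not used here. GC content and motifs of the regions themselves were not analysed here, since no genome was used. A pair was assigned to the protein-coding gene it lay in or else to the nearest, skipping predicted genes with Gm and Rik names.

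Ratios have exact Clopper-Pearson intervals and shares Wilson intervals, at 95%, for counting error only. With 1 library per genotype there was no test between genotypes. Genes named were those of the 12 pairs with the highest ratio, summed pileup or lower interval bound, genes with 3 or more pairs, the 5 fullest windows of 1 Mb and up to 4 genes per list. Other names were chosen after their values were seen. The pair at 1 list gene is not reported here. The members and lists were chosen with earlier results of these data known. Pairing, the ratio rule and placement on genes were tested on WT peaks with planted ratios, and the 95% intervals were not tested. The tools were Python 3.11.15, pandas 2.3.3, scipy 1.17.1 and statsmodels 0.14.6.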

Additional observations from a re-analysis of the deposited data

How the results depend on the processing

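The number of higher pairs, 359, followed the thresholds: 857 at a ratio of 1.1, 36 at 1.5, 923 at a summed pileup of 30 and 67 at 60. Read against pairs of like pileup, with a threshold of 1.62 times their median, it was 747, including all 359. Pairing by largest overlap gave 364, and requiring overlap of the shorter peak by 50 percent or more gave 360. The gene-end share of 7.8% became 15.6% with ends widened to 2500 bp, 11.1% at a ratio of 1.5 and 3.53% with annotated starts alone, a choice made after seeing the data. Genes with 3 or more higher pairs went from 2 to 0 without a flank and to 0 at a summed pileup of 60, and windows with 5 or more from 1 to 0 in windows of 0.5 Mb and to 0 at a sum of 60. The median width of 792 bp became 865 bp at a sum of 60, where pairs are stronger. Higher pairs at list genes went from 7 to 18 with a flank of 50 kb (0.432% of 4166 pairs). The median ratio near the higher pairs, 0.75, was the same without those at heat shock genes, another choice made after seeing the data.

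No paired analysis was possible because each genotype had 1 library. No library could be left out for the same reason. The middle 50 percent of WT pileups lay between 18 and 24 and of Tle4cKO pileups between 24 and 31, so that for all but 8 ratios the counting interval included 1. GC content and motif alternatives were not run.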
